A study of Mus musculus with 9 samples.

Results

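Genes of the mitochondrial respiratory chain and of transport across the mitochondrial membranes were followed in 3 kinds of sorted mouse skeletal cells. The genes were all protein-coding rows of the deposited FPKM table whose symbols begin with mt-, Nduf, Sdha to Sdhd, Uqcr, Cox and a digit, Atp5, Timm, Tomm or Slc25a. This rule used names only and found 26 of the 8329 genes in the table, 3477 of which are protein coding. FPKM are fragments scaled to gene length and to the total of a library, so that levels can be set side by side between genes. Of these 26 genes, 24 passed the filter on low values (at least 1 FPKM in at least 3 of the 9 libraries) among 1948 genes that passed in all. Cox8b and Slc25a18 did not pass and are described by their values alone.

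The study compared 3 groups of 3 libraries each. BM-MSCs are mesenchymal stem cells from bone marrow and P-SSCs are skeletal stem cells from the periosteum, the membrane around a bone, both taken from wild-type C57BL/6J mice at steady state. Graft P-SSCs came from the periosteum of a wild-type C57BL/6J donor femur 3 days after it had been placed under the skin of a recipient mouse. All groups were sorted by the same gate, CD45-Ter119-CD31-CD51+CD200+, all were wild type, and the labels give no age. P-SSCs differ from BM-MSCs in tissue, and graft P-SSCs differ from P-SSCs in transplantation. Graft P-SSCs differ from BM-MSCs in both, which cannot be told apart, since no group of transplanted marrow cells was analysed here. The methods state that the RNA of more than 1 mouse was joined where needed, without naming the replicates. The names of 2 libraries, the second of BM-MSCs and the second of P-SSCs, each combine 2 sample names and may mark such joined RNA. The question put to these genes is how the 3 cell populations differ in them, at steady state and after the stress of transplantation.

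The libraries held 16890241 to 21315438 fragments. The mean correlation of a library with the others of its group over the tested genes was 0.909 to 0.990, apart from P-SSC replicate 3, at 0.864. The genes of the positive sort markers CD51 and CD200 were not analysed here. Of 7 stromal genes listed only Postn, a secreted matrix protein of periosteum that was not used in the sort, was in the table, and it lay at 90.6 to 125 FPKM in BM-MSCs, 391 to 476 FPKM in P-SSCs and 782 to 879 FPKM in graft P-SSCs. The 4 blood markers in the table, of 12 listed, summed to 438 to 610 FPKM in BM-MSCs, 14.5 to 72.3 FPKM in P-SSCs and 32.5 to 91.3 FPKM in graft P-SSCs, with Ptprc, which encodes CD45, listed at 0 in every P-SSC library and at most at 1.35 FPKM elsewhere. Most of these sums was Lyz2, of myeloid cells, apart from BM-MSC replicate 1, where Mpo, of granulocytes, was at 292 FPKM and was at 0 in the other BM-MSC libraries. Csf1r, a receptor of macrophages, went the other way and was called higher in grafts, at 5.57 to 6.31 FPKM against 0.25 to 0.83 FPKM in P-SSCs and 0 to 2.68 FPKM in BM-MSCs (limma adjusted p of 0.0043 and 0.0057). All graft libraries and no P-SSC library reached the 1 FPKM of the filter, which favoured the call against P-SSCs. The part of Csf1r in the graft differences was not tested. The erythroid marker Hba-a2 lay at 618 to 2201 FPKM in BM-MSCs and at 0.53 to 20.2 FPKM in the 6 periosteal libraries. No endothelial, adipocyte or osteoblast marker on the lists was analysed here.

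The respiratory chain passes electrons from NADH and succinate to oxygen through complexes I to IV in the inner mitochondrial membrane, and the proton gradient that this builds drives ATP synthase, also called complex V. A small set of core subunits is encoded by the mitochondrial genome, and all other subunits are encoded in the nucleus, made in the cytosol and imported. The TOM complex is the entry gate of the outer membrane, the TIM23 complex takes precursors with a presequence into or across the inner membrane, the TIM22 complex inserts carrier proteins, and the carriers of the Slc25 family move metabolites across the inner membrane. Stem cells of the skeleton are generally described as relying much on glycolysis while quiescent and more on respiration as they become active.

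The deposited table holds 2 genes of the mitochondrial genome, 5 subunits and 1 assembly factor of complex I, 1 subunit each of complexes II and III, 2 of complex IV, 4 of ATP synthase, 3 components of TOM, 4 of TIM and 3 carriers. Other genes of the chain and of import have no row in it, so the levels given here do not stand for whole complexes. The 26 genes stand on the mitochondrial genome and on many chromosomes of the nuclear genome, and their listed positions on GRCm38 equal those of GENCODE M21 for 26 of 26.

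Promoters are shown for 3 genes whose levels behaved differently in the comparisons that follow: Sdha, with no call in any comparison, and Timm23 and Tomm40, called higher in graft P-SSCs against both other groups. Each is the RefSeq sequence from 250 bases before to 50 bases after the transcript start in GRCm38.p6, on the minus strand and written 5′ to 3′, and capitals mark letters of a searched motif on either strand. The Sdha promoter is chr13:74350191-74350490, that of Timm23 is chr14:32201842-32202141 and that of Tomm40 is chr7:19715380-19715679.
Sdha: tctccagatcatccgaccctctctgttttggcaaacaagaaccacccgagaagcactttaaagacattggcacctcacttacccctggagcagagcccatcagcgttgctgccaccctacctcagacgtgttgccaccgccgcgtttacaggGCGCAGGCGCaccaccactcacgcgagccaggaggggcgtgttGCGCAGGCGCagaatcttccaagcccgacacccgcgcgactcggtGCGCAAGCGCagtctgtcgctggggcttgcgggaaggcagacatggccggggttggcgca
Timm23: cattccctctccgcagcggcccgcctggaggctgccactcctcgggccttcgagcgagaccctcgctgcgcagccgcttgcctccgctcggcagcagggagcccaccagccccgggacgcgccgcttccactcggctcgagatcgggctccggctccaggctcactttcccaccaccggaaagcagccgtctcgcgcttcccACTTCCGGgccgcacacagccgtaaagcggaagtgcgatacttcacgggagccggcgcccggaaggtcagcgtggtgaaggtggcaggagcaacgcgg
Tomm40: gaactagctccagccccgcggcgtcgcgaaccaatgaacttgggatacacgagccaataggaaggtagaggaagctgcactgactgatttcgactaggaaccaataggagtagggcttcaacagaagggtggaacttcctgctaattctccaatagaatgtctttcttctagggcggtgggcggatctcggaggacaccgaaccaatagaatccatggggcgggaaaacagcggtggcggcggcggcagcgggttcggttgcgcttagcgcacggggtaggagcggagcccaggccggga
A loose form of the site of NRF1, a factor known for nuclear genes of the respiratory chain, stood 98, 55 and 10 bases before the start of Sdha. The letters CCGGAAGT, known from sites of the ETS family, stood 48 bases before the start of Timm23, and neither these nor the letters TCAAGGTCA of the ERR site were found in the Tomm40 window. Of the 26 genes, 19 had a promoter in the RefSeq table. The loose NRF1 form, which leaves 1 base of the strict consensus free, was found in 3 of these 19 (Atp5k, Ndufa6 and Sdha), against 5.19% of all 27025 genes with a promoter. The strict consensus, which the loose form includes, was found in Atp5k alone, against 1.07% of all genes. The ETS letters were in 3 (Ndufs3, Timm23 and Timm29), against 4.31% of all genes, and the ERR letters in 0, against 0.466% of all genes. The genes with a match did not share 1 pattern across the groups: of those with the ETS letters, Timm23 was higher and Ndufs3 lower in graft P-SSCs than in BM-MSCs.

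Mean levels in BM-MSCs ranged from 452 ± 73.8 FPKM (SD, n = 3) for Sdha to 0.021 ± 0.036 FPKM (SD, n = 3) for Slc25a18, and Cox8b was listed at 0 there. Apart from Cox4i2 and Cox8b, the nuclear subunits of the chain lay between 60.9 and 530 FPKM in every library. The assembly factor Ndufaf2 lay at 7.20 to 17.5 FPKM over all 9 libraries.

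**Figure D1:**
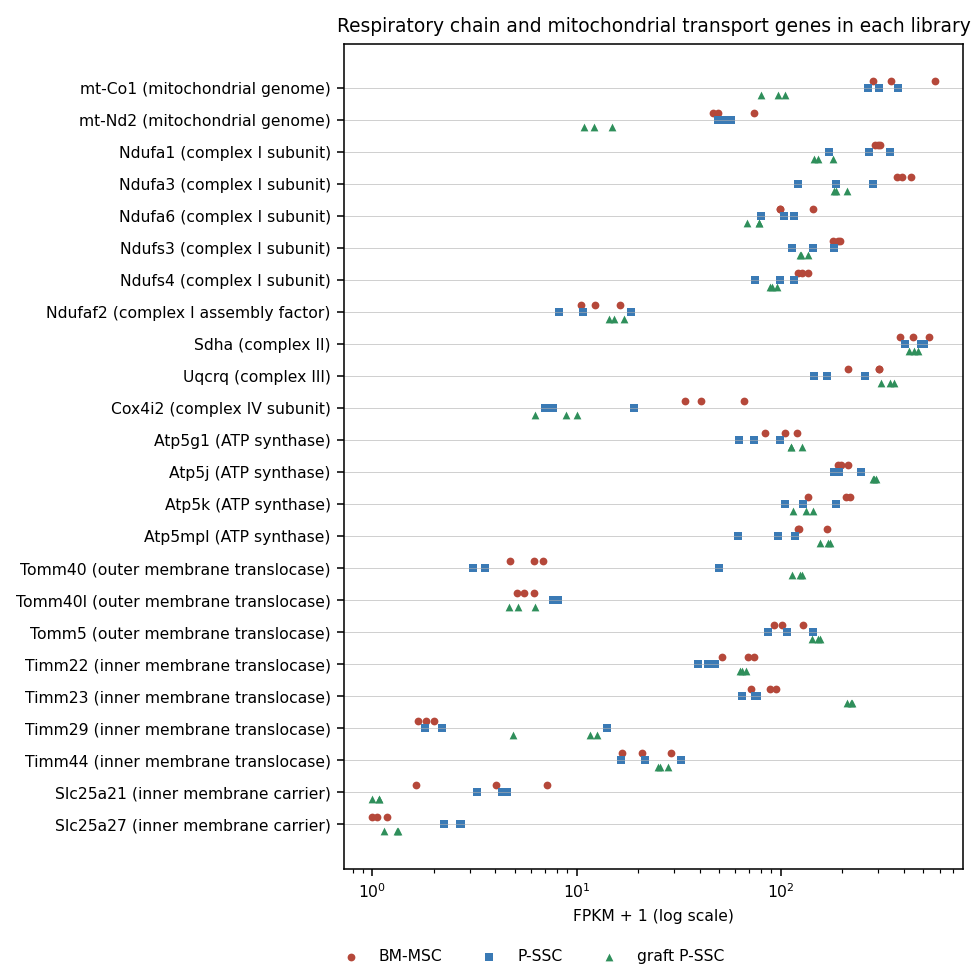
FPKM + 1 on a log axis for the 24 genes that passed the filter, ordered by role, with 1 point per library (circles BM-MSCs, squares P-SSCs, triangles graft P-SSCs, 3 libraries each). The graft libraries lie apart to the left for mt-Co1 and mt-Nd2 and to the right for Tomm40 and Timm23, while 1 P-SSC library lies apart from the other P-SSC libraries for Tomm40 and Timm29.

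Both genes of the mitochondrial genome in the table were lower in graft P-SSCs than in either steady-state group, and they did not differ beyond the spread between P-SSCs and BM-MSCs. mt-Co1 (GRCm38 MT, 5328 to 6872) encodes the catalytic core subunit of complex IV, and mt-Nd2 (MT, 3914 to 4951) encodes a subunit of the membrane arm of complex I. The level of mt-Co1 was 569, 283 and 347 FPKM in BM-MSCs, 374, 303 and 267 FPKM in P-SSCs, and 96.0, 78.7 and 103 FPKM in graft P-SSCs. Each graft library lay under every steady-state library, and the steady-state groups overlapped. For mt-Nd2 the levels were 73.1, 45.8 and 48.0 FPKM in BM-MSCs, 55.9, 52.9 and 48.2 FPKM in P-SSCs, and 9.86, 13.8 and 11.2 FPKM in graft P-SSCs. Again the graft libraries lay under all others, and the steady-state groups overlapped.

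Against P-SSCs, the log2 difference in graft P-SSCs was -1.75 ± 0.25 (SE) for mt-Co1 and -2.09 ± 0.23 (SE) for mt-Nd2 on the log2(FPKM + 1) scale, with limma adjusted p of 0.00071 and 0.00014. Against BM-MSCs it was -2.04 for mt-Co1 and -2.15 for mt-Nd2, with limma adjusted p of 0.00020 and 7.6e-05. Between P-SSCs and BM-MSCs the log2 difference was -0.30 for mt-Co1 (95% interval -0.86 to 0.27, limma adjusted p = 0.46) and -0.06 for mt-Nd2 (95% interval -0.56 to 0.45, limma adjusted p = 0.89). All 4 calls held under the 18 alternatives tried. Levels are shares of a library, and in bulk samples fewer cells of a type and less RNA per cell cannot be told apart.

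Both genes have a single transcript, and their FPKM correspond to whole fragments. mt-Co1 had 8222 to 14848 fragments per library in BM-MSCs, 7829 to 11402 in P-SSCs and 2593 to 2870 in graft P-SSCs, and mt-Nd2 had 895 to 1282, 950 to 1147 and 181 to 306. Together they took 0.0955%, 0.0484% and 0.0586% of the fragments of the BM-MSC libraries, 0.0635%, 0.0523% and 0.0462% of the P-SSC libraries and 0.0159%, 0.0136% and 0.0171% of the graft libraries. The mean share in P-SSCs was 3.48 times that in graft P-SSCs (exact two-sided permutation test, p = 0.1, the smallest that 3 libraries against 3 allow). mRNA was selected through its poly(A) tail, so the share is of captured transcripts, not of all mitochondrial RNA.

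The nuclear subunits together overlapped between graft P-SSCs and P-SSCs. Summed over the 12 nuclear subunits of complexes I to V that passed the filter, the level was 2374, 2650 and 2533 FPKM in BM-MSCs, 1970, 2417 and 1533 FPKM in P-SSCs and 2065, 2082 and 2244 FPKM in graft P-SSCs. The graft libraries lay within the range of the P-SSC libraries and under those of BM-MSCs. A ratio was taken of the summed FPKM of the 2 mitochondrial genes to the summed FPKM of the 12 nuclear subunits. It was 0.270, 0.124 and 0.156 in BM-MSCs, 0.218, 0.147 and 0.205 in P-SSCs and 0.0513, 0.0445 and 0.0511 in graft P-SSCs. All 3 graft ratios lay under all others, and the mean ratio in P-SSCs was 3.89 times the mean in graft P-SSCs (exact two-sided permutation test, p = 0.1, the smallest possible). Copies of mitochondrial DNA in the nuclear genome share sequence with both genes: Gm13340 on chromosome 2 is 97.6% identical over all 1545 bases of mt-Co1, Gm29216 on chromosome 1 is 99.8% identical over 483 bases of it, and Gm13339 on chromosome 2 is 96.7% identical over 510 bases of mt-Nd2. How reads that match a copy were assigned is not given in the sources used here, so the 2 levels are uncertain to that extent.

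**Figure D2:**
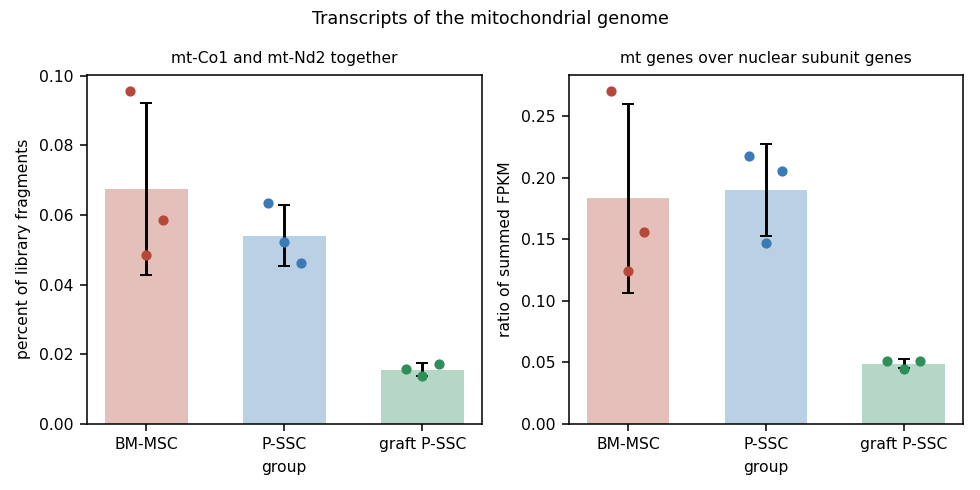
Left, the percent of library fragments on mt-Co1 and mt-Nd2 together, and right, their summed FPKM divided by the summed FPKM of 12 nuclear subunit genes, for each group (bars, mean of 3 libraries; error bars, SD; points, libraries). In both panels all graft P-SSC libraries lie under all libraries of the other groups, at 0.0136% to 0.0171% and at ratios of 0.0445 to 0.0513.

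Over all 24 tested genes, graft P-SSCs differed from P-SSCs in 12, with 7 higher and 5 lower (of the 5, Slc25a27 passed the filter through P-SSCs alone and Slc25a21 through the steady-state groups alone), where 34.1% of all genes tested were called (22.6% higher and 11.5% lower). The median log2 difference was 0.01 for the 24 genes and 0.26 for all genes tested. That general shift of 0.26 went to 0.02 with median-of-ratios scaling of the libraries and to -0.08 with quantile normalization, so the differences of the genes called against P-SSCs are given relative to it as well. Relative to the shift, mt-Co1 was at -2.01, mt-Nd2 at -2.35, Slc25a21 at -2.19, Slc25a27 at -1.27 and Ndufa1 at -0.93 on the log2 scale, and Tomm40 was at 3.63 and Timm22 at 0.33; those of Timm23, Uqcrq and the ATP synthase genes stand with their values. With median-of-ratios scaling 2 of the 24 genes were called higher and 6 lower, with quantile normalization 4 higher and 7 lower, and over all genes the calls went from 441 higher and 224 lower to 308 and 302, and to 312 and 355. The 3 libraries of each group did not overlap in 13 of the 24 genes, 7 higher and 6 lower in graft P-SSCs, against 50.6% of all genes tested.

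Graft P-SSCs and BM-MSCs differed in 12 genes, 4 higher and 8 lower in graft P-SSCs (Slc25a21 among the 8), where 41.9% of all genes tested were called (25.7% higher and 16.2% lower). The median log2 difference was 0.01 for the 24 genes and 0.28 for all genes tested. Relative to that shift the 8 lower genes lay between -0.83 (Ndufs3) and -2.72 (Cox4i2), and the 4 higher ones between 0.24 (Atp5j) and 4.10 (Tomm40). The libraries did not overlap in 15 genes, against 64.5% of all genes. P-SSCs and BM-MSCs differed in 4 genes, 1 higher and 3 lower in P-SSCs (the higher one, Slc25a27, passed the filter through P-SSCs alone), where 24.2% of all genes tested were called (9.80% higher and 14.4% lower). Here the medians were -0.21 and -0.06, and the libraries did not overlap in 7 genes, against 32.1% of all genes. The 3 comparisons share libraries, each group entering 2 of them.

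**Figure D3:**
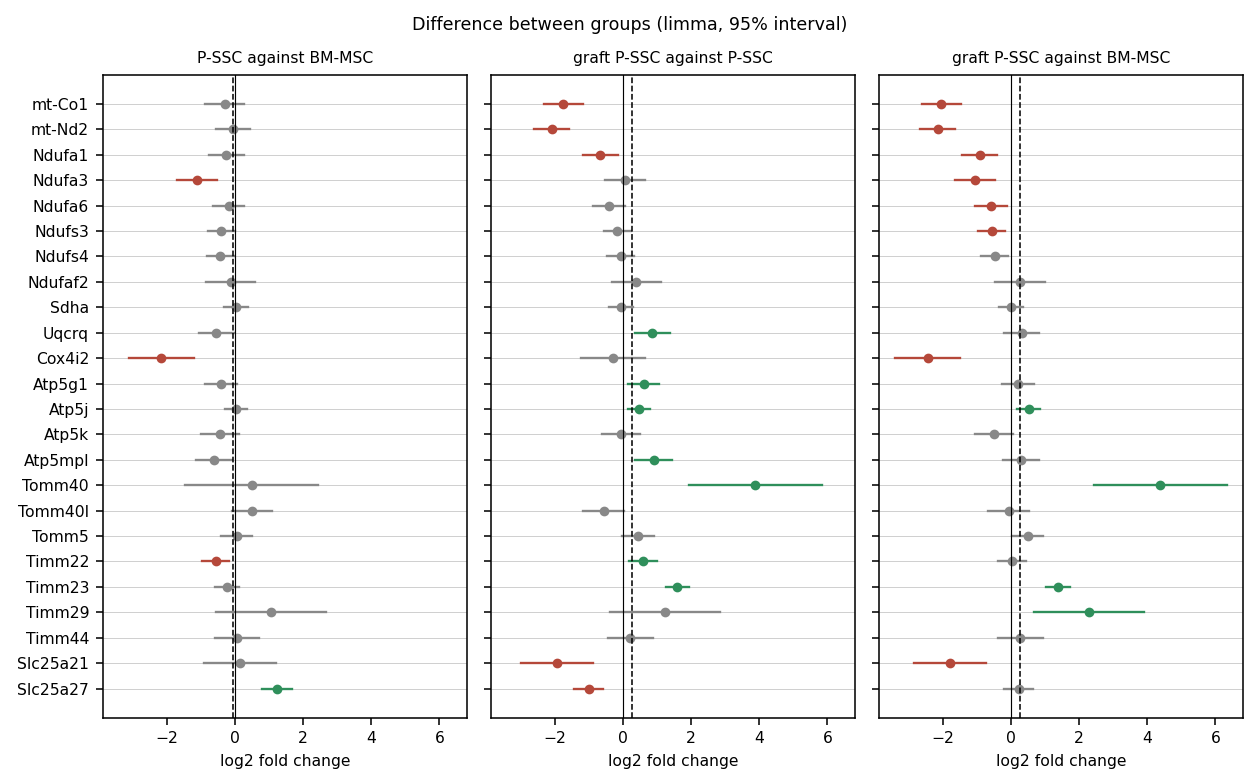
log2 differences (x axis, log2(FPKM + 1) scale) of the 24 tested genes in the 3 comparisons, with 95% intervals from limma. Green marks genes called higher, red genes called lower and grey genes not called at an adjusted p of 0.05, and the dashed line is the median of all genes tested (-0.06, 0.26 and 0.28), so a reader can see that mt-Co1 and mt-Nd2 lie lowest together with Slc25a21 in the graft comparison with P-SSCs.

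Complex I, which takes electrons from NADH, had 5 nuclear subunits in the table: the core subunit Ndufs3, and Ndufa1, Ndufa3, Ndufa6 and Ndufs4, which are accessory subunits. All 5 had a negative log2 difference in graft P-SSCs against BM-MSCs, 4 of them called, where 16.2% of all genes tested were called lower. All 5 were also negative in P-SSCs against BM-MSCs, and 1 of 5 was called lower there (14.4% of all genes). The median log2 difference of the 5 was -0.58 in grafts and -0.40 in P-SSCs against BM-MSCs, and 0.28 and -0.06 over all genes tested. Against P-SSCs 1 of 5 was called lower in grafts (11.5% of all genes), and the median was -0.16, with 0.26 over all genes tested. Ndufa3 lay at 370, 434 and 393 FPKM in BM-MSCs, 186, 281 and 120 FPKM in P-SSCs and 186, 182 and 210 FPKM in graft P-SSCs. Every BM-MSC library was above every periosteal library, with the graft libraries inside the range of P-SSCs. Its log2 difference was -1.11 ± 0.26 (SE) in P-SSCs and -1.05 ± 0.26 (SE) in graft P-SSCs against BM-MSCs, with limma adjusted p of 0.012 and 0.011. The first of these calls ended with median-of-ratios scaling (-0.80 to -1.41 over the alternatives, limma adjusted p up to 0.052).

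The levels of Ndufa1 were 289, 306 and 297 FPKM in BM-MSCs, 269, 340 and 171 FPKM in P-SSCs and 151, 144 and 178 FPKM in graft P-SSCs. The graft libraries were apart from those of BM-MSCs and overlapped those of P-SSCs through P-SSC replicate 3. It was lower in grafts by both comparisons, with a log2 difference of -0.91 against BM-MSCs (limma adjusted p = 0.011) and -0.66 against P-SSCs, at a limma adjusted p of 0.047 that rose to between 0.067 and 0.146 when any 1 library other than P-SSC replicate 3 was left out. Ndufa6 was at 98.5, 143 and 97.8 FPKM in BM-MSCs, 103, 116 and 78.8 FPKM in P-SSCs and 67.7, 77.3 and 77.5 FPKM in graft P-SSCs, with all graft libraries under all others. Ndufs3 was at 180, 194 and 190 FPKM in BM-MSCs, 142, 180 and 113 FPKM in P-SSCs and 125, 135 and 123 FPKM in graft P-SSCs, where the grafts were under BM-MSCs and within the range of P-SSCs.

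Against BM-MSCs, the log2 difference in grafts was -0.58 for Ndufa6 and -0.56 for Ndufs3, with limma adjusted p of 0.045 and 0.030. The Ndufa6 call ended without any 1 graft library, BM-MSC replicate 1 or 2, or P-SSC replicate 1 (limma adjusted p 0.052 to 0.144), and the Ndufs3 call without any 1 graft or BM-MSC library (0.052 to 0.093). Ndufs4 had -0.48 (95% interval -0.88 to -0.08, limma adjusted p = 0.053), which passed the threshold without P-SSC replicate 2 (0.029) or 3 (0.010). A pseudogene, Gm12251, is 98.6% identical to Ndufs3 over 792 bases. The assembly factor Ndufaf2 was not called in any comparison.

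Complex II was represented by Sdha, its flavoprotein subunit, which also acts in the TCA cycle. Sdha had 530, 442 and 383 FPKM in BM-MSCs, 500, 483 and 406 FPKM in P-SSCs and 426, 448 and 467 FPKM in graft P-SSCs. The 3 ranges overlapped. The log2 difference between graft P-SSCs and P-SSCs was -0.05 with a 95% interval of -0.39 to 0.30, and relative to the general shift of all genes it was -0.31.

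Complex III had 1 gene in the table. Uqcrq, a small subunit of complex III, was at 213, 301 and 302 FPKM in BM-MSCs, 167, 257 and 145 FPKM in P-SSCs and 340, 310 and 358 FPKM in graft P-SSCs. Its graft libraries were above all others. Against P-SSCs its log2 difference was 0.86 ± 0.23 (SE) (limma adjusted p = 0.016), and 0.60 relative to the general shift.

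Of the 4 genes of ATP synthase, 3 were called higher in graft P-SSCs than in P-SSCs, where 22.6% of all genes tested were called higher. They were Atp5mpl, a small proteolipid associated with the enzyme, Atp5g1, a gene for the membrane ring of subunit c, and Atp5j, coupling factor 6 of the stalk. Atp5mpl had 122, 120 and 167 FPKM in BM-MSCs, 117, 96.1 and 60.9 FPKM in P-SSCs and 169, 155 and 173 FPKM in graft P-SSCs. Atp5g1 had 82.5, 104 and 119 FPKM in BM-MSCs, 72.6, 97.9 and 61.1 FPKM in P-SSCs and 111, 111 and 127 FPKM in graft P-SSCs. For both, each graft library was above each P-SSC library and overlapped the range of BM-MSCs.

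Atp5j had 190, 197 and 211 FPKM in BM-MSCs, 182, 246 and 193 FPKM in P-SSCs and 282, 291 and 284 FPKM in graft P-SSCs. Its graft libraries were above all libraries of both other groups. The log2 differences against P-SSCs were 0.90 for Atp5mpl, 0.61 for Atp5g1 and 0.48 for Atp5j, with limma adjusted p of 0.017, 0.047 and 0.031, and 0.64, 0.35 and 0.21 relative to the general shift. Against BM-MSCs Atp5j was higher by 0.52 on the log2 scale (limma adjusted p = 0.019). Atp5k, which encodes subunit e, was at 104 to 219 FPKM over the 9 libraries and was not called (-0.07 in grafts against P-SSCs, 95% interval -0.62 to 0.49).

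The calls of Uqcrq, Atp5mpl, Atp5g1 and Atp5j against P-SSCs all ended with median-of-ratios scaling (limma adjusted p of 0.20, 0.15, 0.46 and 0.63), as did that of Atp5j against BM-MSCs (0.31). They also ended without graft replicate 1 (0.055 to 0.104) or without graft replicate 3 (0.058 to 0.150). Leaving out P-SSC replicate 1 ended those of Uqcrq, Atp5g1 and Atp5j (0.059, 0.120 and 0.110). Atp5g1 and Atp5j lost theirs without graft replicate 2 (0.102 and 0.103), and Atp5g1 without P-SSC replicate 3 (0.087) or BM-MSC replicate 2 (0.065). Quantile normalization ended the calls of Atp5g1 and Atp5j against P-SSCs (0.28 and 0.094), and a GC correction that of Atp5mpl (0.059). Atp5j against BM-MSCs lost its call without any 1 graft library (0.059 to 0.069). Atp5j overlaps Gabpa on the opposite strand over 701 bases, and whether the counting used strand is not given in the sources used here.

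Complex IV was represented by 2 nuclear isoforms. Cox4i2, an alternative isoform of subunit 4 that is known from lung and from cells kept at low oxygen (GRCm38 chromosome 2, 152754173 to 152765037), was at 39.6, 64.7 and 32.8 FPKM in BM-MSCs, 6.03, 18.2 and 6.63 FPKM in P-SSCs and 5.27, 7.90 and 9.08 FPKM in graft P-SSCs. All BM-MSC libraries were above all periosteal libraries, and the 2 periosteal groups overlapped. Its log2 difference against BM-MSCs was -2.15 ± 0.42 (SE) in P-SSCs and -2.44 ± 0.42 (SE) in graft P-SSCs, with limma adjusted p of 0.0043 and 0.0015. Both calls held in all 18 alternatives, and between graft P-SSCs and P-SSCs the difference was -0.29 (95% interval -1.24 to 0.66). Hba-a2 and Lyz2 were also higher in BM-MSCs than in both periosteal groups by the test, Mpo was high in BM-MSC replicate 1 alone, Csf1r was not higher, and their part in the Cox4i2, Ndufa3 and other differences against BM-MSCs was not tested.

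Cox8b, the isoform of subunit 8 known from striated muscle and brown fat, did not pass the filter. It had 5, 15 and 5 fragments in the P-SSC libraries (0.70, 2.35 and 0.73 FPKM), 0 in each BM-MSC library, which allows up to 3 fragments per library, and 0, 1 and 0 in graft P-SSCs. The same P-SSC library was highest for the muscle markers Myl1, at 1.77, 6.47 and 2.76 FPKM, and Atp2a1, at 0.83, 5.69 and 2.89 FPKM. In BM-MSCs Myl1 was at 1.72, 3.48 and 0 FPKM, and in graft P-SSCs at 0.33, 0 and 0.41 FPKM. Of 17 muscle markers listed, 3 were in the table, their sums were 0 to 4.17 FPKM in BM-MSCs, 2.6 to 12.2 FPKM in P-SSCs and 0.068 to 0.90 FPKM in graft P-SSCs, and the third, Myh7, was at 0 in 7 libraries. The part of muscle RNA in the Cox8b values was not tested.

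Of the import machinery, 2 genes rose in graft P-SSCs under every alternative. The 7 TOM and TIM genes summed to 264, 303 and 289 FPKM in BM-MSCs, 248, 303 and 281 FPKM in P-SSCs and 567, 599 and 601 FPKM in graft P-SSCs. The graft sums were above all others, and most of the gain stood on these 2 genes, Timm23 and Tomm40. Of the 7 genes, 3 were called higher and 0 lower in grafts against P-SSCs, and 3 higher and 0 lower against BM-MSCs. Over all genes tested, 22.6% were called higher and 11.5% lower in the first comparison, and 25.7% and 16.2% in the second.

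Timm23 encodes the channel of the presequence translocase of the inner membrane (GRCm38 chromosome 14, 32180162 to 32201898), and its promoter is among those shown. Its level was 70.1, 94.2 and 87.1 FPKM in BM-MSCs, 63.5, 75.8 and 73.4 FPKM in P-SSCs and 209, 222 and 219 FPKM in graft P-SSCs. The graft libraries were close to each other and above all others. The log2 difference was 1.60 ± 0.16 (SE) against P-SSCs and 1.37 ± 0.16 (SE) against BM-MSCs, with limma adjusted p of 7.0e-05 and 0.00012, and 1.34 relative to the general shift against P-SSCs. Both calls held in all alternatives. Gm10273 on chromosome 10, annotated as protein coding, is 99.9% identical to Timm23 over 1121 of 1173 bases, so fragments of both loci cannot be cleanly separated.

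Tomm40 encodes the channel through which nearly all imported proteins cross the outer membrane (GRCm38 chromosome 7, 19701313 to 19715438). Its level was 3.71, 5.81 and 5.17 FPKM in BM-MSCs, 2.57, 2.10 and 48.7 FPKM in P-SSCs and 112, 124 and 126 FPKM in graft P-SSCs. The graft libraries were far above all others, and P-SSC replicate 3 lay between them and the remaining P-SSC libraries. The log2 difference was 3.89 ± 0.87 (SE) against P-SSCs (limma adjusted p = 0.0076) and 4.38 ± 0.87 (SE) against BM-MSCs (limma adjusted p = 0.0034). Without P-SSC replicate 3 the first was 5.19 ± 0.23 (SE), at a limma adjusted p of 8.3e-07. Between P-SSCs and BM-MSCs the difference was 0.49 (limma adjusted p = 0.75) with this library and -0.81 (0.026) without it, so its direction turned.

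The other TOM genes were steadier. Tomm5, a small subunit of the same complex, was at 101, 127 and 91.3 FPKM in BM-MSCs, 107, 143 and 85.9 FPKM in P-SSCs and 141, 152 and 154 FPKM in graft P-SSCs, and its log2 difference of 0.49 against BM-MSCs was not called (95% interval 0.03 to 0.96, limma adjusted p = 0.079) although the libraries did not overlap. Without P-SSC replicate 2 or 3 that difference was called (0.038 and 0.030), and without P-SSC replicate 2 the difference against P-SSCs of 0.63 was called as well (0.032). Tomm40l, a paralog of Tomm40 at 3.67 to 7.10 FPKM, was highest in the 3 P-SSC libraries (6.94, 7.10 and 6.63 FPKM), which did not overlap either other group, and was not called in any comparison. In grafts against P-SSCs its log2 difference was -0.57 (95% interval -1.16 to 0.03, limma adjusted p = 0.13), opposite in sign to that of Tomm40. Tomm40l overlaps Nr1i3 on the other strand over 4691 bases, and Tomm40 overlaps the antisense gene Gm20512 over 423.

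The TIM22 complex had 2 genes in the table. Timm22, its channel, was at 68.2, 50.5 and 72.6 FPKM in BM-MSCs, 46.6, 42.9 and 38.1 FPKM in P-SSCs and 63.9, 62.2 and 66.8 FPKM in graft P-SSCs. The P-SSC libraries were under all others. The log2 difference was 0.59 in grafts against P-SSCs (limma adjusted p = 0.031) and -0.56 in P-SSCs against BM-MSCs (limma adjusted p = 0.047), and the second call ended in 15 of 18 alternatives, among them leaving out any 1 library other than BM-MSC replicate 2 (0.061 to 0.134). The first ended with median-of-ratios scaling (0.34), with quantile normalization (0.22 on the log2 scale, limma adjusted p = 0.41), in a fit without the trend (0.060) and without P-SSC replicate 2 (0.056) or any 1 graft library (0.081 to 0.102).

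Timm29, a component of the TIM22 complex, was at 1.01, 0.84 and 0.67 FPKM in BM-MSCs, 1.18, 0.82 and 13.0 FPKM in P-SSCs and 10.6, 11.6 and 3.86 FPKM in graft P-SSCs. These are 39 to 54 fragments per BM-MSC library, 46 to 785 per P-SSC library and 220 to 784 per graft library. P-SSC replicate 3 was above every graft library, and the remaining P-SSC libraries were at the level of BM-MSCs. The log2 difference in grafts was 2.28 against BM-MSCs (limma adjusted p = 0.030) and 1.23 against P-SSCs (0.22, not called), and without P-SSC replicate 3 the latter was 2.17 and called (0.0021). The call against BM-MSCs ended without any 1 BM-MSC library or without graft replicate 1 or 2 (0.067 to 0.098). It also ended with a replicate block and in a fit with no filter on low values. Timm44, which tethers the import motor to TIM23, lay at 15.5 to 31.3 FPKM and was not called in any comparison.

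P-SSC replicate 3 carried the spread of Tomm40 and Timm29. Relative to the mean of the other P-SSC libraries, its log2 level was 3.90 higher for Tomm40, rank 22 of the 1948 genes tested, and 2.82 higher for Timm29, rank 92, and between -0.92 and 0.29 for the other 22 genes. Over all genes the median of this deviation was 1.19 in the group of 498 genes with the highest GC content in the first 300 bases of the transcript (66.7% and over), and -0.03, -0.12 and 0.00 in the 3 groups of lower GC content. Tomm40 has 74.7% GC there and Timm29 57.0%. Polg, the mitochondrial DNA polymerase, was also highest in this library among the P-SSCs, with 2.22, 2.16 and 46.9 FPKM in P-SSCs, 7.04, 3.48 and 9.48 FPKM in BM-MSCs and 28.2, 30.3 and 33.4 FPKM in graft P-SSCs, and was not called in grafts against P-SSCs (limma adjusted p = 0.12). With GC content corrected for, the Tomm40 difference against P-SSCs was 3.36 (limma adjusted p = 0.0023).

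**Figure D4:**
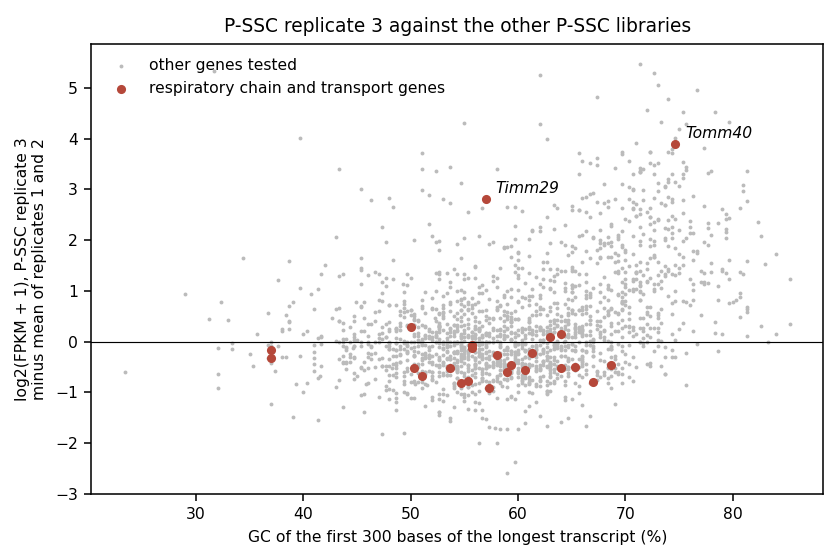
Difference of P-SSC replicate 3 from the mean of P-SSC replicates 1 and 2 in log2(FPKM + 1) (y axis) against the GC percent of the first 300 bases of the longest transcript (x axis), with 1 point per gene tested and the respiratory chain and transport genes in red. Tomm40 at 3.90 and Timm29 at 2.82 lie apart from the other 22 red points, and the grey points rise at high GC content.

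The carriers were low genes with their own patterns. Slc25a21, the carrier of oxodicarboxylates, was at 0.62, 3.05 and 6.18 FPKM in BM-MSCs, 3.30, 2.26 and 3.57 FPKM in P-SSCs and 0.075, 0 and 0.073 FPKM in graft P-SSCs. All graft libraries were under all others. The log2 difference in grafts was -1.93 ± 0.47 (SE) against P-SSCs and -1.78 ± 0.47 (SE) against BM-MSCs, given as a description on a scale that understates changes of low genes, because no graft library reached the 1 FPKM of the filter and the gene passed through the other groups. In a fit with no filter both were called (limma adjusted p of 0.033 and 0.040). Slc25a27, also named uncoupling protein 4, was at 0.057, 0 and 0.18 FPKM in BM-MSCs, 1.24, 1.68 and 1.72 FPKM in P-SSCs and 0.33, 0.34 and 0.13 FPKM in graft P-SSCs.

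Slc25a27 passed the filter through the P-SSC libraries alone and so had to differ there. Its log2 difference was 1.23 ± 0.19 (SE) in P-SSCs against BM-MSCs and -1.01 ± 0.19 (SE) in grafts against P-SSCs, given as a description. In a fit with no filter on low values both differences were called (limma adjusted p of 0.00093 and 0.0025). Slc25a18, a glutamate carrier, had 0 to 2 fragments per library.

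Other mitochondrial genes were followed through lists. The list of the mitochondrial ribosome was drawn from the table itself, as symbols that begin with Mrpl or Mrps, so it does not measure coverage of the family. It held 6 genes, all tested, and 0 were called by limma in any comparison. In grafts against BM-MSCs 1 had an unadjusted p under 0.05, and 0 did in the other comparisons. Over all 1948 genes tested, the shares called were 24.2% in P-SSCs against BM-MSCs, 34.1% in grafts against P-SSCs and 41.9% in grafts against BM-MSCs, and 660, 848 and 990 genes had an unadjusted p under 0.05. The 4 highest were Mrps21, Mrpl4, Mrps16 and Mrpl38, at 136 to 269, 102 to 196, 30.9 to 69.5 and 32.7 to 65.8 FPKM. Of 22 genes for biogenesis and mitochondrial DNA maintenance, 5 were in the table and tested, with 0 called by limma in either graft comparison (3 at an unadjusted p under 0.05 against BM-MSCs and 0 against P-SSCs) and Mterf2 lower in P-SSCs than in BM-MSCs. Tfb2m, which is needed for mitochondrial transcription, was at 4.04 to 15.8 FPKM with no call, and its log2 difference in grafts against P-SSCs was 0.26 (limma adjusted p = 0.68).

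Coenzyme Q carries electrons from complexes I and II to complex III, and genes for its synthesis were among those called in grafts. Of 41 other electron carriers and assembly factors, 5 were in the table and tested, 2 of them higher in grafts against P-SSCs, 3 against BM-MSCs, and 0 lower, where 22.6% and 25.7% of all genes tested were called higher. Coq3, a methyltransferase of this pathway, was at 7.77, 3.34 and 4.92 FPKM in BM-MSCs, 3.21, 0.93 and 3.95 FPKM in P-SSCs and 19.1, 19.2 and 19.3 FPKM in graft P-SSCs. Its log2 difference was 2.56 against P-SSCs and 1.73 against BM-MSCs (limma adjusted p of 0.0012 and 0.0083). Pdss1, which makes the side chain, was higher by 1.94 and 1.38 (0.0015 and 0.0078). Coq10b, a chaperone of coenzyme Q, was higher in both periosteal groups than in BM-MSCs, by 1.80 in P-SSCs and 1.71 in graft P-SSCs (0.00081 and 0.00087). Coq4, also of the pathway, and Foxred1, an assembly factor of complex I, were not called.

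In the TCA cycle list 4 of 24 genes were in the table and 3 were tested. Idh2, a mitochondrial isocitrate dehydrogenase, was at 194, 134 and 125 FPKM in BM-MSCs, 31.0, 41.5 and 81.0 FPKM in P-SSCs and 307, 280 and 327 FPKM in graft P-SSCs, and the 3 groups did not overlap. Pdk4, a kinase that inhibits pyruvate dehydrogenase, was lower in grafts, by -1.98 on the log2 scale against P-SSCs and -2.91 against BM-MSCs (limma adjusted p of 0.011 and 0.0012). Pdhb, a subunit of that enzyme, was not called, at 0.01 and -0.18.

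Of 35 other transport and import genes, 4 were in the table and 3 were tested. Hspe1, the partner of the matrix chaperonin, was at 27.3, 49.0 and 75.8 FPKM in BM-MSCs, 30.2, 47.4 and 43.8 FPKM in P-SSCs and 107, 119 and 108 FPKM in graft P-SSCs, with the grafts above all others. It was higher in grafts by 1.46 against P-SSCs and 1.23 against BM-MSCs (limma adjusted p of 0.0079 and 0.015). Sfxn3, a serine carrier, was highest in P-SSCs, at 68.2 to 79.1 FPKM against 16.1 to 22.7 FPKM in BM-MSCs and 27.7 to 31.5 FPKM in graft P-SSCs. Grpel2, a cofactor of the import motor, was not called, and Ucp1 was listed at 0 in all 9 libraries.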

How the data were processed

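RNA was measured in 9 libraries of sorted cells, 3 each of BM-MSCs, P-SSCs and graft P-SSCs. Per the labels and the submitters' processing notes, the authors purified poly(A) RNA, trimmed reads with fastp, mapped them to GRCm38 with STAR 2.6.1d, counted with featureCounts 1.5.0-p3 and deposited FPKM values; annotation release and strand setting are not given in the sources used here. Single-transcript genes gave whole fragments (100% of the low values checked in each library, within 0.1), which fixed library totals; for other genes the length used could not be recovered, so no count test was run.

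After the filter (at least 1 FPKM in at least 3 of 9 libraries), values were taken as log2(FPKM + 1), and groups were compared in 1 fit with limma 3.58.1 (R 4.3.3; eBayes with trend), calling at a Benjamini-Hochberg adjusted p under 0.05 over 1948 genes. The fit was tested on simulated data. Near copies are BLAST matches of at least 95% over at least 100 bases. Genes named with values in each library are those called in a comparison and those of the mitochondrial genome; from other lists, at most 4 with the highest mean. Sdha, Tomm5, Tomm40l, Cox8b, Pdss1 and the muscle markers were added after their values were seen. The genes and lists were chosen with earlier results of these data known. Methods name separate mice for replicates; p-values measure the spread between libraries. 18 alternatives were tried.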

Additional observations from a re-analysis of the deposited data

How the results depend on the processing

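Of the 28 calls of respiratory chain and transport genes over the 3 comparisons, 16 held in every alternative that gave a value, and none reversed. Among 500 recomputed values, 410 kept direction and call and 90 kept direction but lost the call. The 16 are those of mt-Co1, mt-Nd2, Timm23, Tomm40, Slc25a21, Slc25a27 and Cox4i2, and of Ndufa1 and Ndufa3 in grafts against BM-MSCs; those of Slc25a27 and Slc25a21 were favoured by the filter, which they passed only through groups where they were high. Against P-SSCs in grafts, the calls of Ndufa1, Atp5g1, Atp5j and Timm22 ended in 13, 12, 7 and 7 of 18 alternatives and those of Atp5mpl and Uqcrq in 4 each; against BM-MSCs, those of Ndufa6, Ndufs3, Timm29 and Atp5j ended in 8, 7, 7 and 5. Slc25a21 and Slc25a27 have no value at a minimum of 5 FPKM. With median-of-ratios scaling 2 of these genes were called in P-SSCs against BM-MSCs in place of 4; the cause was not tested. Leaving out 1 library at a time gave 3 to 6 calls of these genes in P-SSCs against BM-MSCs, 6 to 13 in grafts against P-SSCs (6 without graft replicate 1 and 6 without graft replicate 3) and 8 to 14 in grafts against BM-MSCs (8 without graft replicate 1 and 8 without graft replicate 2), and 399 to 593, 450 to 892 and 555 to 1038 calls over all genes. The study describes no pairing of replicates, so the numbers were not taken as pairs. Deviations of same-numbered libraries had correlations of -0.43 to 0.13 over the 9 pairs, and with 3 libraries per group these cannot decide whether pairs exist. With a replicate block 3, 10 and 11 of these genes were called and 4 calls were lost. The 4 were Timm22 in P-SSCs against BM-MSCs, Atp5g1 and Ndufa1 in grafts against P-SSCs, and Timm29 in grafts against BM-MSCs. Some genes that were not called passed the threshold without 1 library: against BM-MSCs, P-SSCs were lower in Ndufs3, Ndufs4 and Uqcrq without P-SSC replicate 2 (limma adjusted p of 0.026, 0.036 and 0.017) and in Atp5mpl without P-SSC replicate 1 (0.043), grafts were lower in Atp5k without BM-MSC replicate 1 (0.049), and against P-SSCs grafts were lower in Ndufa6 without P-SSC replicate 3 (0.039). A correction for GC content was chosen after seeing the data and gave 3, 12 and 14 calls. For genes with several transcripts the depth behind a value is unknown.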
